A study of Mus musculus with 12 samples.

Results

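The SINE B1 loci described here are 34196 copies of a short mouse repeat that carried a mean of at least 20 reads over 6 libraries, out of 492046 copies of its family in the deposited repeat table (6.95%). They were chosen by that level, so the levels given here are a description and carry no test, while differences between genotypes were not used in the choice. The table holds 4929385 repeat loci of all families, of which 234605 reached the same level and were tested together. The repeat table files these copies under SINE/Alu, the family name that mouse B1 shares with the human Alu repeat. The tables carry no subfamily and no sequence of a copy, so the family name could not be set against the sequence itself.

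B1 elements descend from 7SL RNA, the RNA of the signal recognition particle, and are copied by the machinery of LINE-1 elements. A B1 element holds its own promoter for RNA polymerase III, but most copies lie inside genes and are transcribed within longer RNA polymerase II transcripts, often in introns, so reads at a copy can come from a host transcript or from the element. N6-methyladenosine (m6A) is a methyl mark on adenosine in RNA. It is written by the METTL3 and METTL14 complex and removed by the demethylases Alkbh5 and Fto, and on RNA that stays on chromatin it has been studied as a mark that affects how long such RNA, repeat RNA included, lasts.

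The series profiled m6A by MeRIP-seq, the sequencing of RNA fragments pulled down with an m6A antibody, in chromatin-associated RNA of E14TG2a cells, a line of mouse embryonic stem cells. Cells were either wild type (WT), lacked Alkbh5 (Alkbh5-/-, KO) or carried an Alkbh5 deletion termed ΔcIDR, and all were grown with LIF and the inhibitors PD0325901 and CHIR99021. Of 12 samples, 6 are immunoprecipitated and the rest input. The 6 columns used here, 2 per genotype, were taken as immunoprecipitated because of the tables' title, since column names do not say so. Columns named KI were taken as ΔcIDR by elimination, and both KO columns carry the name KO6, so the KO pair may be from a single line. No column read as input was used, so m6A, the amount of RNA and the number of gene copies cannot be told apart in any difference below. The labels do not say that replicates came from separate cultures, and p-values therefore measure only the spread between these samples, which may be technical.

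Values of the repeat table turn back into whole reads when divided by 1 factor per library, and that factor follows the reads of a spike-in RNA that carries m6A. Spike-in reads numbered between 814 and 1870 per library, and 1 read was worth 1.45 to 3.33 units of signal. The libraries held 20922839 to 26267351 reads in repeats. "Deposited scale" means log2 of the signal as the authors scaled it. "Centred scale" means the same after subtracting each library's median over the 234605 tested loci, which removes any change shared by most loci. Between genotypes that shared change was −0.29 (KO against WT), 0.36 (ΔcIDR against WT) and 0.65 (ΔcIDR against KO) on the log2 scale. A locus is called where limma's p, adjusted after Benjamini and Hochberg over all tested loci, is at or under 0.05. Every fold is on the scale of log2(signal + 2), which understates the change of loci with few reads.

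Most B1 copies carried few or no reads. None of the 6 libraries had a read at 54.0% of the copies, and 68.9% had a mean below 1 read. The copies above the minimum held 72.9% of all reads counted at B1, and B1 as a whole took 12.0% of all reads in repeats. Among them the mean per locus had a median of 37.5 reads and quartiles of 26.5 and 62.7. Levels were spread over many loci, since 6825 copies were needed to reach 50% of the members' reads, while 3924 (11.5%) had at least 100 reads and 19 at least 1000. Just at the minimum, 245 loci had exactly 120 reads over the 6 libraries, and 234 loci with 1 read fewer fell outside.

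The copies were short pieces. Their median length was 117 bp, with a range of 13 to 219 bp, against 127 bp over all annotated B1 copies. Copies of at least 120 bp made up 16089 of the members and were 5.70% of all copies of that length. Those from 75 to under 120 bp reached the minimum more often (15181, or 9.46% of their class), and those under 75 bp about as often as the long ones (2926, or 5.92%). The median of the mean reads was close in all 3 classes, at 36.7, 38.5 and 37.5 reads, so reads per 100 bp went from a median of 26.9 in the long class to 38.4 and 65.0 in the shorter ones.

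Few of these copies lay in the intervals that the authors' second table lists. Of the 34196 copies, 492 (1.44%, exact 95% confidence interval 1.32 to 1.57%) overlapped 1 of the 74299 intervals by at least 1 base. These 492 sat in 479 intervals, 404 of which were covered more by B1 than by any other repeat family, and 303 copies lay wholly inside. The copies under intervals had a median of 53.0 reads against 37.3 for the 33704 outside, and 26.4% against 11.3% had at least 100 reads. They held 3.08% of the members' reads. Over all tested repeat loci a larger share, 6.93%, lay under intervals, against 0.924% for the 37446 B2 loci and 1.11% for the 31240 B4 and ID loci, the other short SINE families.

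**Figure D1:**
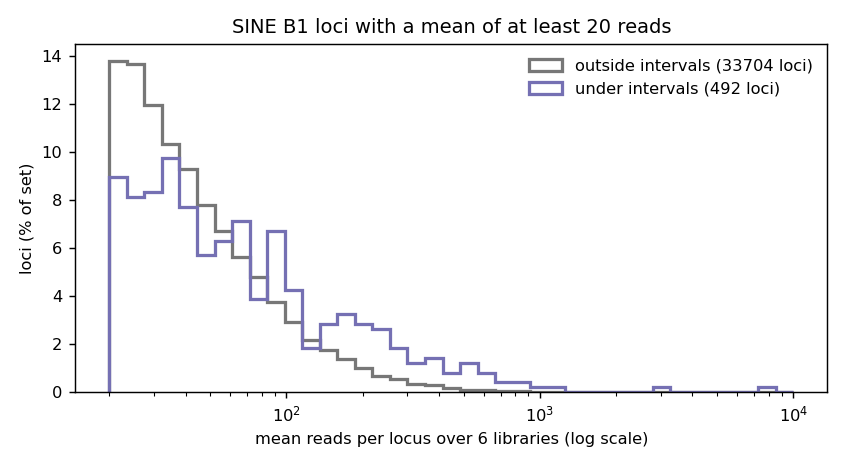
Distribution of the mean number of reads per B1 locus over 6 libraries (horizontal axis, log scale), as a percentage of the 492 loci under intervals and of the 33704 outside (vertical axis). Both sets start at the minimum of 20 reads, and the set under intervals has the higher median (53.0 against 37.3 reads) and the 2 loci with the most reads.

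The B1 copy with the most reads was chr19:5851997-5852144, a 147 bp copy under an interval. It carried 7676 and 8537 reads in WT, 5733 and 6123 in KO, with 9519 and 10306 in ΔcIDR, a mean of 7982. The KO libraries were below both others and the ΔcIDR libraries above, with no overlap between groups. On the centred scale it fell by 0.64 ± 0.11 (log2, SE) in KO against WT (limma adjusted p = 0.00077), a call lost without KO replicate 1 (limma adjusted p = 0.11), and it was 1.03 ± 0.11 higher in ΔcIDR than in KO (limma adjusted p = 6e-07). ΔcIDR and WT differed by 0.39 ± 0.11, which was not called (limma adjusted p = 0.17).

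The next copy had 2.82 times fewer reads. This was chr8:107396334-107396490, also under an interval, with 3070 and 3110 reads in WT, 3052 and 2582 in KO, with 2376 and 2787 in ΔcIDR, and it was called in none of the comparisons (limma adjusted p between 0.087 and 0.65). The third, chr4:140447771-140447881, lay outside the intervals, as did the remaining copies of the 10 highest, and had 2301 and 2012, 2874 and 2437, and 2302 and 2987 reads in the same order. Together the 10 highest copies held 1.20% of the members' reads. They were called in 3 cases in KO against WT, in 1 in ΔcIDR against WT and in 4 in ΔcIDR against KO.

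Among these 10, chr8:43638563-43638704 had 1452 and 1514 reads in WT, 2916 and 2707 in KO, with 1313 and 1328 in ΔcIDR. Both KO libraries stood above all others, and the locus rose by 0.73 ± 0.12 in KO against WT (limma adjusted p = 0.00031), a call kept without each library in turn. Its whole chromosome shifted the same way, as given further on. At chr19:38045859-38045986 the WT libraries, with 1480 and 1187 reads, were the lowest, against 2003 and 1911 in KO, with 1833 and 2200 in ΔcIDR. It rose by 0.70 ± 0.13 in ΔcIDR against WT (limma adjusted p = 0.013), a call lost without WT replicate 2, either KO library or ΔcIDR replicate 2.

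As a group the B1 copies stayed close to the median of all tested loci, of which they are a part. On the centred scale the median over the 34196 copies differed from that of all tested loci by 0.018 ± 0.010 in KO against WT, 0.036 ± 0.016 in ΔcIDR against WT and 0.019 ± 0.015 in ΔcIDR against KO (log2, SE over libraries, n = 2 per group). In the same order, loci of the ERVL family stood at 0.13 ± 0.03, −0.050 ± 0.045 and −0.19 ± 0.03. LINE-1 loci stood at 0.011 ± 0.039, −0.12 ± 0.07 and −0.13 ± 0.07. By library, the B1 median stood at −0.010 and −0.025 in WT, 0.0086 and −0.0042 in KO, with 0.00047 and 0.029 in ΔcIDR. The smallest two-sided p that an exact permutation test allows with 2 libraries against 2 is 0.33, so none of these medians can pass a threshold. Single copies varied far more than the group shifted, with quartiles of −0.29 and 0.35 in KO against WT and of −0.39 and 0.40 in ΔcIDR against KO.

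On the deposited scale the summed signal of the copies differed by −0.27 ± 0.31 in KO against WT, 0.43 ± 0.03 in ΔcIDR against WT (1.35-fold) and 0.70 ± 0.31 in ΔcIDR against KO (1.63-fold). The error of both contrasts with KO comes from the KO pair, whose summed signal was 4623365 and 3001700 units, 1 above and 1 below both WT libraries (4424105 and 4559797). Their summed reads, 2349160 and 2068231, were closer, and the spike-in reads of that pair were 1379 and 1870. These deposited values move with the spike-in reads, and their part in the result was not tested.

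Compared with the other short SINEs, the B1 median was 0.019 ± 0.008 above that of B2 in KO against WT and 0.035 ± 0.011 below that of B4 and ID (difference −0.035). In ΔcIDR against KO it was 0.067 ± 0.009 above that of B4 and ID, and −0.016 ± 0.010 from that of B2. In ΔcIDR against WT it was 0.037 ± 0.014 above B4 and ID and 0.0085 ± 0.0064 from B2, where the libraries overlapped. In the other differences of this paragraph the libraries of the 2 genotypes did not overlap, although all were small beside the spread of single copies.

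Copies under intervals and copies outside moved apart by a little more. The difference between the medians of the 2 sets was −0.061 ± 0.034 in KO against WT, 0.079 ± 0.027 in ΔcIDR against WT and 0.11 ± 0.03 in ΔcIDR against KO, and in all 3 the libraries of the 2 genotypes did not overlap. The copies under intervals stood at −0.023 and 0.0065 in WT, −0.083 and −0.046 in KO, with 0.081 and 0.080 in ΔcIDR, relative to the median of all tested loci. The ΔcIDR libraries were thus the highest and the KO libraries the lowest. Leaving out 1 library at a time, the difference in KO against WT ranged from −0.081 to −0.024. It ranged from 0.029 to 0.097 in ΔcIDR against WT and from 0.085 to 0.15 in ΔcIDR against KO. Between length classes, copies of at least 120 bp minus copies under 75 bp gave −0.080 ± 0.036, 0.028 ± 0.041 and 0.099 ± 0.020 in the same order of comparisons, with overlapping libraries in the second.

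Counted locus by locus on the centred scale, KO against WT had 858 higher and 847 lower copies among the 34196, or 4.99% called, against 7.37% of all tested repeat loci (3.15% higher and 4.22% lower). The share among B1 copies was thus below the background, as were those of B2 (5.19%) and of B4 and ID (5.70%). At least 100 reads were reached by 11.5% of B1 copies and 15.4% of all tested loci. The part of depth was not tested. With chromosomes 6, 8 and 11 left out the split was 442 higher and 600 lower, and centred on each chromosome separately it was 569 and 739. Apart from the main fit on each scale, the share of all tested loci called is given only for the first edgeR count below. Counts under other settings, here and further on, describe B1 copies alone. On the deposited scale 32 were higher and 716 lower, where 3.86% of all loci were called (0.227% higher and 3.64% lower). Fewer were called on the centred scale without WT replicate 1 (1071), WT replicate 2 (653), KO replicate 1 (405, of which 28.6% were higher) or KO replicate 2 (376, of which 29.0% were higher). On the deposited scale the count was 5862 without KO replicate 1 and between 27 and 388 without each other library.

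ΔcIDR against WT held few calls. In reads simulated for KO against WT with a set spread, limma called 0% of 50 loci changed 1.5-fold and 8% of 50 changed 2-fold. It called 94% of those raised 4-fold and 58% of those lowered to 0.25-fold. In that simulation 234405 loci were unchanged, so its shares need not hold where many loci change, nor in ΔcIDR against WT. Few calls alone do not show that few copies changed, and how many changed beyond those called was not tested. On the centred scale 5 copies were higher and 18 lower, 0.0673% of the copies against 0.257% of all tested loci (0.119% higher and 0.138% lower), and 2898 copies had an unadjusted p under 0.05. B2 had 0.107% called and B4 and ID 0.118%. edgeR's quasi-likelihood test on the whole reads called 41, of which 19 were higher and 22 lower, where its background was 0.357% (0.21% higher and 0.147% lower). With each chromosome centred separately limma called 5 higher and 7 lower, with libraries centred on reads outside the intervals 3 higher and 22 lower, and with TMM factors edgeR called 15 and 23. Leaving out either ΔcIDR library raised the limma count to 39 and 41, and leaving out any WT or KO library lowered it to 13 or 14. On the deposited scale 7 were higher and 3 lower, where 0.0946% of all loci were called (0.0729% higher and 0.0217% lower), but 1482 and 1509 were called without KO replicate 1 or 2, whose spread enters the pooled error of the fit.

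ΔcIDR against KO held the most calls. On the centred scale 2527 copies were higher and 2213 lower, 13.9% against 18.2% of all tested loci (9.69% higher and 8.5% lower). B2 had 14.6% called and B4 and ID 15.7%. The split was 1858 and 1136 with chromosomes 6, 8 and 11 left out and 2287 and 1568 with each chromosome centred separately. It turned to more lower than higher copies with libraries centred on reads in repeats outside the intervals (2256 higher and 2499 lower) and without ΔcIDR replicate 2 (1559 higher and 1914 lower). The count was 1729 without KO replicate 1, 1872 without KO replicate 2 and 2774 without ΔcIDR replicate 1. On the deposited scale 8512 were higher and 146 lower, where 27.3% of all loci were called (26.6% higher and 0.772% lower). That count was 16873 without KO replicate 1, 4102 without KO replicate 2, 1458 and 1898 without a ΔcIDR library, and 5264 and 5245 without a WT library. KO against WT and ΔcIDR against KO share the KO libraries, so their calls are not independent of each other.

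Between libraries of 1 genotype the copies differed by a root mean square of 0.51 (WT), 0.44 (KO) and 0.52 (ΔcIDR) log2 units. Between WT and KO libraries this was 0.60 to 0.63, between WT and ΔcIDR 0.52 to 0.57 and between KO and ΔcIDR 0.70 to 0.73. ΔcIDR libraries were thus hardly further from WT libraries than replicates were from each other, and both KO libraries were further from each ΔcIDR library than from each WT library. Calls also followed depth. Of the 3924 copies with at least 100 reads, 14.2% were called in KO against WT, 0.306% in ΔcIDR against WT and 30.2% in ΔcIDR against KO. Over all 34196 copies these shares were 4.99%, 0.0673% and 13.9%. The share called over repeat loci of every family at that depth was not taken, so these values compare B1 copies only.

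**Figure D2:**
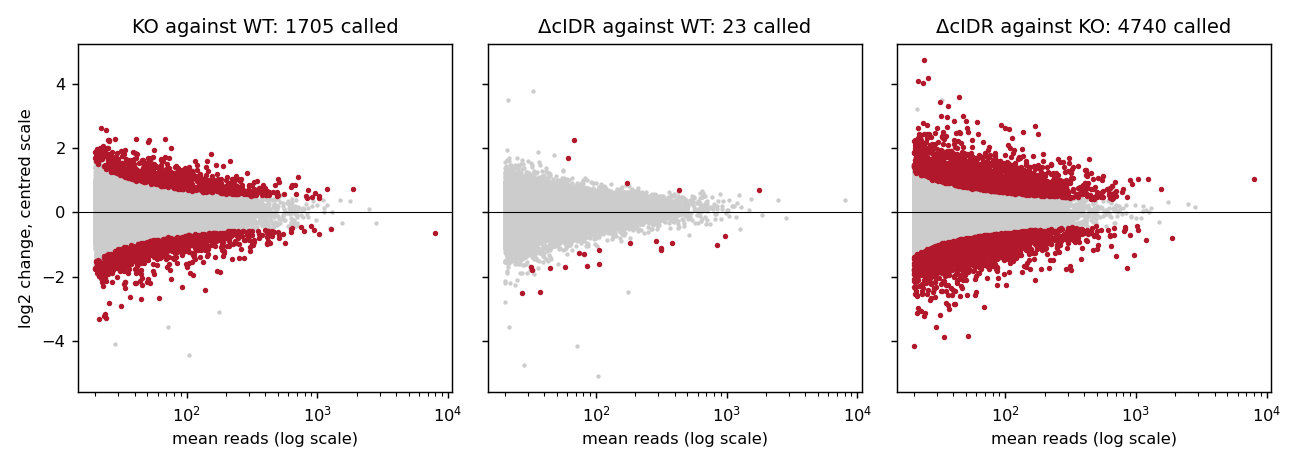
Log2 change of every B1 locus on the centred scale (vertical axis) against its mean reads over 6 libraries (horizontal axis, log scale) in KO against WT, ΔcIDR against WT and ΔcIDR against KO. Red points are the 1705, 23 and 4740 loci called by limma at an adjusted p of 0.05, and the grey points past 3 log2 units in the first 2 panels are loci whose reads come mostly from 1 library or whose libraries disagree.

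The KO libraries were high on whole chromosomes. The median B1 change in KO against WT was 0.36 ± 0.03 on chromosome 6 (1878 copies) and 0.34 ± 0.01 on chromosome 8 (2229 copies), and on the other 18 chromosomes plotted it lay between −0.061 (chromosome 1) and 0.087 (chromosome 11). In ΔcIDR against WT the same chromosomes stood at −0.11 ± 0.04 and −0.16 ± 0.02, the others between 0.037 and 0.11, so ΔcIDR lay below WT there. Chromosome medians over repeats of every family were close to those of B1, at 0.35 and 0.32 in KO against WT. The shift is therefore shared by the other repeats of these chromosomes.

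**Figure D3:**
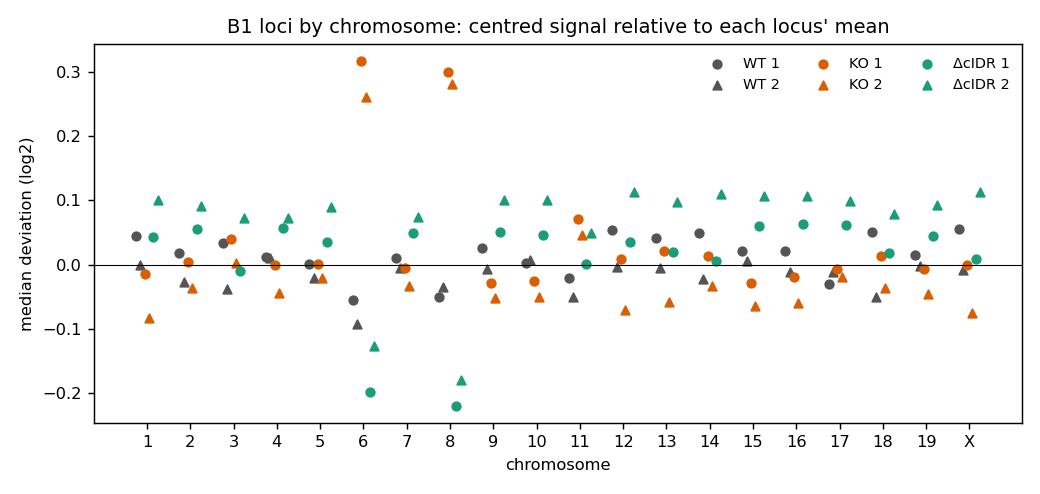
Median deviation of the B1 loci of each chromosome from their own mean over 6 libraries (vertical axis, log2, centred scale), 1 point per library, chromosomes on the horizontal axis (chromosome Y, with 14 loci, and scaffolds are not drawn). On chromosomes 6 and 8 both KO libraries stand above the rest, between 0.26 and 0.32, and both ΔcIDR libraries lie lowest.

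These 2 chromosomes weigh on the counts of calls. They hold 12.0% of the copies (4107), but 333 of the 858 copies called higher in KO against WT (38.8%) and 19 of the 847 called lower (2.24%). In ΔcIDR against KO they hold 922 of the 2213 lower calls (41.7%) and 53 of the 2527 higher ones (2.10%). The same shares of the calls over all tested loci were not taken, so these values describe B1 copies only. Bins of 10 Mb were kept where they held at least 50 copies. All 12 such bins of chromosome 6 and all 10 of chromosome 8 had a median above 0 in KO against WT. On chromosome 11 the 4 bins from 20 to 60 Mb stood at 0.56, 0.44, 0.49 and 0.41, and the other bins between −0.10 and 0.06. Across the 160 such bins of the remaining chromosomes the medians ran from −0.38, in the bin from 90 to 100 Mb of chromosome 9 (122 copies), to 0.16.

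Neighbouring copies changed together. Of the 34196 copies, 82.6% had another member within 10 kb, and joining such neighbours gave 12100 clusters, 5961 of them a single copy and the largest of 76. In KO against WT, 307 neighbouring pairs within 10 kb had both copies called, and all 307 pairs had the same direction. In ΔcIDR against KO this held for 1233 of 1240 pairs, and in ΔcIDR against WT for 2 of 2. Without chromosomes 6, 8 and 11 the counts were 191 of 191 and 800 of 805 in the comparisons with KO. Over all 22096 neighbouring pairs, called or not, 67.3%, 58.5% and 70.9% had the same sign in KO against WT, ΔcIDR against WT and ΔcIDR against KO. The same shares over neighbouring repeat loci of every family were not taken, so whether they are particular to B1 was not tested.

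Likeness fell with distance. Between consecutive copies under 1 kb apart, Pearson's r of the change was 0.55 in KO against WT, 0.23 in ΔcIDR against WT and 0.65 in ΔcIDR against KO (4595 pairs, chromosomes 6, 8 and 11 left out). At gaps of 10 to 100 kb it was 0.25, 0.11 and 0.29 (7308 pairs), and at 100 kb to 1 Mb it was 0.067, 0.064 and 0.070 (1968 pairs). These correlations are across loci, which are not independent replicates: all share the 6 libraries, and close neighbours can share reads or a host transcript.

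**Figure D4:**
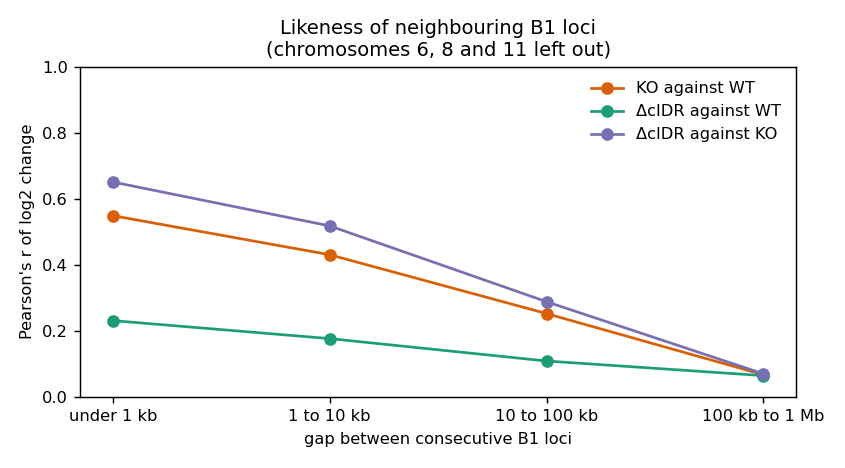
Pearson's r between the log2 changes of consecutive B1 loci (vertical axis) by the gap between them (horizontal axis, 4 classes from under 1 kb to 1 Mb) in the 3 comparisons, chromosomes 6, 8 and 11 left out. In each comparison r is highest under 1 kb (0.55, 0.23 and 0.65) and close to 0.07 beyond 100 kb.

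Of the clusters with at least 3 called copies, 105 of 110 had all calls in 1 direction in KO against WT. This held for 1 of 1 in ΔcIDR against WT and 373 of 399 in ΔcIDR against KO. No such share was taken over clusters of all tested repeat loci. Some of the clusters with the most calls are given here by their reads. At chr4:137323491-137393411, 35 copies over 69.9 kb carried 5772 and 5729 reads in WT, 4134 and 3685 in KO, with 6350 and 6560 in ΔcIDR. The KO libraries were the lowest and did not overlap the rest, and 21 of the 35 copies fell in KO against WT, with none called higher. A cluster of 24 copies at chr1:132905816-132952470 (4121 and 3841, 2983 and 2611, and 4032 and 4541 reads) had 15 that fell. All 8 copies at chr4:11157185-11169516 fell, with 1250 and 1125 reads in WT, 643 and 490 in KO, with 1279 and 1496 in ΔcIDR. The last had the lowest median change of these 3 clusters, −1.19. Reads here are not scaled for depth, and the KO libraries held the most reads in repeats.

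In the other direction, 10 of the 17 copies at chr11:19903711-19970172 rose in KO against WT. Their summed reads were 582 and 620 in WT, 1662 and 1406 in KO, with 611 and 624 in ΔcIDR, so both KO libraries stood far above all others, and the median change was 1.15. Of the 16 copies at chr11:95856288-95890742, 8 rose, with 537 and 507, 1171 and 985, and 547 and 575 reads. Both clusters lie outside the raised bins of that chromosome, the first ending just before them. At chr4:46453323-46469547, 8 of 11 rose, with 813 and 779 reads in WT, 1965 and 1734 in KO, with 726 and 820 in ΔcIDR. WT and ΔcIDR lay side by side in each of these 3 clusters. A mixed cluster was chr10:62573631-62741691, with 71 copies over 168 kb, where 9 copies rose and 1 fell in KO against WT while the median change was 0.21 and single copies ran from −1.33 to 1.72. Its reads were 4642 and 4858 in WT, 7083 and 6468 in KO, with 4257 and 4119 in ΔcIDR, and in ΔcIDR against KO 19 copies were lower and 2 higher.

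A different order appeared at chr4:133410980-133477605, where 13 of 14 copies were lower in ΔcIDR than in KO. Its reads were 560 and 470 in WT, 998 and 894 in KO, with 271 and 242 in ΔcIDR, so the 3 genotypes did not overlap and WT lay in the middle. The median change in ΔcIDR against KO was −1.68. All these counts are on the centred scale with limma, and clusters were ranked by the number of copies called, after the calls were known.

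Single copies with the largest drop in KO against WT carried few reads there. Copies named here and below for the size of their change were chosen among called copies whose 2 compared groups do not overlap. That these 2 groups lie apart is therefore no added support. At chr17:6842634-6842779 (145 bp) the reads were 21 and 25 in WT, 0 and 6 in KO, with 36 and 40 in ΔcIDR. KO lay below and ΔcIDR above, with no overlap, and the change in KO against WT was −3.31 ± 0.72 (limma adjusted p = 0.0049), a call lost without WT replicate 2 or KO replicate 1. The nearest interval, 1649 bp away, changed by −3.90 in the same comparison. The copy at chr16:4965920-4965987 (67 bp) had 20 and 18 reads in WT, 0 and 4 in KO, with 51 and 51 in ΔcIDR. Its change was −3.27 ± 0.69 (limma adjusted p = 0.0038).

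At chr3:9892139-9892225 (86 bp), with 39 and 38 reads in WT, 3 and 5 in KO, with 27 and 29 in ΔcIDR, the change was −3.15 ± 0.49 (limma adjusted p = 0.0002). The copy at chr12:17866736-17866882 (146 bp) had 21 and 30, 2 and 2, and 45 and 40 reads. The deepest of the 10 copies with the largest drop was chr5:104979698-104979838 (140 bp), with 201 and 174 reads in WT, 36 and 42 in KO, with 184 and 185 in ΔcIDR. WT and ΔcIDR were alike there and KO was far below, and it fell by 2.42 ± 0.21 on the log2 scale (limma adjusted p = 7.4e-08).

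Copies with the largest rise in KO against WT were, likewise, low in WT. At chr11:22770020-22770081 (61 bp) the reads were 30 and 27 in WT, 161 and 161 in KO, with 17 and 16 in ΔcIDR. KO stood above both other groups, the change was 2.28 ± 0.29 (limma adjusted p = 1.9e-05), and the call was kept without each library in turn. It lies in the raised bins of chromosome 11, and with each chromosome centred separately it was still called (limma adjusted p = 4.9e-05). A pair of such copies were neighbours, chr10:75417615-75417703 (88 bp) and chr10:75418760-75418911 (151 bp). The first had 16 and 31 reads in WT, 114 and 135 in KO, with 6 and 7 in ΔcIDR, and the second 15 and 18, 88 and 105, and 12 and 9. Their changes in KO against WT were 2.24 ± 0.39 and 2.30 ± 0.38, and the call of the second was lost without KO replicate 2 (limma adjusted p = 0.053). The copy with the largest estimate, chr16:48136743-48136869 (2.63 ± 0.61), rested on 13 and 2 reads in WT against 51 and 36 in KO and lost its call without WT replicate 2 or either KO library.

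In ΔcIDR against WT the clearest copy was chrX:72136001-72136138 (137 bp). It had 31 and 29 reads in WT, 37 and 34 in KO, with 123 and 150 in ΔcIDR. Only the ΔcIDR libraries were raised, the change was 2.25 ± 0.27 (limma adjusted p = 4.5e-05), and among the 5 copies of largest change in each direction it alone kept its call without each library in turn. The nearest interval, 27232 bp away, changed by 0.07. On the lower side, chr4:133457774-133457867 (93 bp) had 34 and 33 reads in WT, 49 and 37 in KO, with 5 and 5 in ΔcIDR, and changed by −2.51 ± 0.44 (limma adjusted p = 0.0063). It belongs to the cluster of 14 copies on chromosome 4 described above, and its call was lost without either WT library. At chr9:73012603-73012736 (133 bp) the reads went from 186 and 132 in WT to 106 and 111 in KO, with 49 and 46 in ΔcIDR, a change of −1.61 ± 0.23 in ΔcIDR against WT (limma adjusted p = 0.0006).

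Of the 18 copies lower in ΔcIDR than in WT, 6 were among the 14 copies on chromosome Y. Within chrY:90807176-90817713, 7 copies carried 1994 and 2311 reads in WT, 4275 and 3227 in KO, with 1052 and 1000 in ΔcIDR, and 4 of them fell in ΔcIDR against WT. The 5 copies of chrY:90728875-90740101 had 927 and 940, 1733 and 1526, and 439 and 447 reads. In both groups of copies KO was highest and ΔcIDR lowest without overlap, and all 12 copies were lower in ΔcIDR than in KO. The other 2 copies of the chromosome did the opposite: chrY:1016317-1016463 had 50 and 74 reads in WT, 62 and 63 in KO, with 120 and 123 in ΔcIDR, and rose by 1.23 ± 0.25 in ΔcIDR against KO (limma adjusted p = 0.00093). Of the 6 calls against WT, those at chrY:90738824-90738967 (−1.11 ± 0.17) and chrY:90807176-90807319 (−1.03 ± 0.15) were kept without each library in turn. At chrY:90817570-90817713 the call (−1.71 ± 0.34) was lost in 5 of the 6 fits with 1 library left out.

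ΔcIDR against KO set the extremes of both other groups side by side. The largest drop, at chr7:30170915-30171087 (172 bp), went from 44 and 50 reads in KO to 7 and 0 in ΔcIDR, with 9 and 11 in WT, a change of −4.17 ± 0.89 (limma adjusted p = 0.0017) whose call was lost without KO replicate 2. The copy chr10:75417615-75417703 given above followed with −3.85 ± 0.39 (limma adjusted p = 1.5e-07). The largest rises were at copies named for their drop in KO. They were 4.76 ± 0.69 at chr16:4965920-4965987 and 4.11 ± 0.72 at chr17:6842634-6842779. Near the first, chr16:4986058-4986117 (59 bp) had 50 and 42 reads in WT, 8 and 6 in KO, with 76 and 84 in ΔcIDR, and rose by 3.59 ± 0.34 (limma adjusted p = 5.1e-08).

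**Figure D5:**
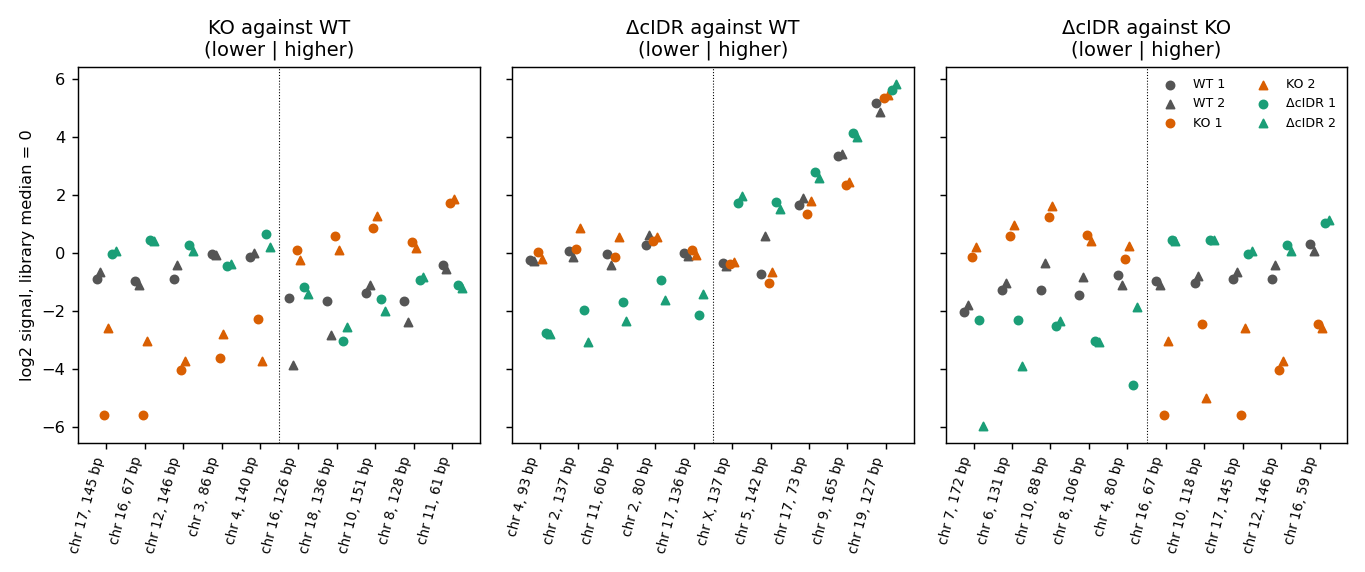
Log2 signal of 30 B1 loci by library, relative to the library's median over all tested loci (vertical axis). Each panel gives 1 comparison with the 5 loci of largest drop left of the dotted line and the 5 of largest rise right of it, named by chromosome and length (horizontal axis). In the first panel both KO libraries lie below the rest on the left and above them on the right, in the middle panel the ΔcIDR libraries stand apart, and in the last KO and ΔcIDR lie on opposite sides with WT mostly between them or near ΔcIDR.

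Under intervals, 17 of the 492 copies were higher and 27 lower in KO against WT (8.94% called, against 4.93% of the copies outside), 0 and 1 in ΔcIDR against WT, and 68 and 33 in ΔcIDR against KO (20.5% against 13.8%). Over all tested repeat loci 7.37%, 0.257% and 18.2% were called in these comparisons, and the shares under intervals lie near that background. The single call in ΔcIDR against WT is from limma on the centred scale, where 68 of the 492 had an unadjusted p under 0.05. Copies under intervals were also deeper, and the part of depth in these shares was not tested. The change of a copy and the change of its interval, both from the same reads, had Pearson's r of 0.87, 0.73 and 0.89 across copies in the 3 comparisons. Among called copies whose interval had at least 20 reads, the signs matched in 44 of 44, 1 of 1 and 99 of 101.

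The copies under intervals given next were chosen after their values were seen. At chr5:113059047-113059146 (99 bp) the reads were 103 and 121 in WT, 26 and 23 in KO, with 128 and 151 in ΔcIDR. KO lay far below both others, and the change in KO against WT was −2.32 ± 0.24 (limma adjusted p = 8.65e-07), with the interval around it at −1.69. At chr17:34766290-34766375 (85 bp), 161 and 175 reads in WT stood against 53 and 53 in KO, with 318 and 257 in ΔcIDR, so all 3 genotypes were apart, and the change in KO against WT was −1.83 ± 0.20 (limma adjusted p = 2.1e-06). Its interval starts at 34766372, so only the last few bases of this copy lie under it. Both calls were kept without each library in turn.

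On the higher side, chr11:22787257-22787372 (115 bp) had 57 and 68 reads in WT, 210 and 169 in KO, with 38 and 43 in ΔcIDR. KO was the highest and ΔcIDR the lowest, with a change of 1.40 ± 0.24 in KO against WT (limma adjusted p = 0.00046), and this copy lies in the same stretch of chromosome 11 as the 61 bp copy named above. The 1 copy called in ΔcIDR against WT was chr8:115650134-115650239 (105 bp), with 76 and 93 reads in WT, 149 and 146 in KO, with 20 and 30 in ΔcIDR. It fell by 1.66 ± 0.26 on the log2 scale (limma adjusted p = 0.0018), a call lost without WT replicate 2 (limma adjusted p = 0.059), and its interval changed by −0.77.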

How the data were processed

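The authors deposited a read signal scaled by a spike-in, in a table of repeat loci and one of genomic intervals. GRCm39 is the assembly per the submitters' processing notes, which list featureCounts, HISAT2, fastp, MACS2, bedtools, Picard and SAMtools with no roles. How reads that match several B1 copies were counted is not given in the sources used here. Coordinates are as deposited, and whether a start counts from 0 or 1 is not stated. The planned tests were written for CPM and kept their form on this signal.

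Dividing the repeat table's values by each library's smallest value above 0 gave whole reads for 100% of them (tolerance 1e-06). The main fit was limma 3.58.1 on log2(signal + 2) of all 234605 loci with a mean of at least 20 reads, 1 mean per genotype over 6 libraries, with a variance trend. Standard errors of medians come from medians per library. edgeR 4.0.16 and DESeq2 1.42.0 were run on the whole reads as alternatives. Overlaps used bedtools 2.31.1, in Python 3.11.15 and R 4.3.3, and the limma and edgeR steps were tested on simulated data. Interval changes are log2(signal + 0.5) without a test.

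Members and rules were chosen with earlier results of these data known. The loci named are a selection from the 10 with the most reads and, per comparison and direction, up to 10 with the largest change among called loci whose libraries do not overlap. Clusters, chromosome Y, copies under intervals and copies read in 1 library were picked after their values were seen. Intervals cover counting error only.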

Additional observations from a re-analysis of the deposited data

How the results depend on the processing

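Counts of called B1 loci moved with the library left out. Leaving out each library in turn gave these lowest and highest counts on the deposited scale: 27 and 5862 in KO against WT, 2 and 1509 in ΔcIDR against WT, and 1458 and 16873 in ΔcIDR against KO. On the centred scale they were 376 and 2023, 13 and 41, and 1729 and 4944. Median changes relative to all tested loci ran from 0.012 to 0.029, 0.021 to 0.046 and 0.0012 to 0.031 in the same order. Copies under intervals minus copies outside ran from −0.081 to −0.024, 0.029 to 0.097 and 0.085 to 0.15.

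Counts on the deposited scale that moved by over 1.5 times were 414 (KO against WT), 2 (ΔcIDR against WT) and 4455 (ΔcIDR against KO) with a minimum of 50 reads, where fewer loci are tested. In ΔcIDR against WT they were also 17 with a pseudocount of 10 and 16 with a minimum of 10 reads. On the centred scale KO against WT gave 1042 without chromosomes 6, 8 and 11 and 678 with DESeq2. ΔcIDR against WT gave 38 with a pseudocount of 10, 12 with each chromosome centred separately (chosen after seeing the data), 41 with edgeR and 38 with edgeR and TMM factors. ΔcIDR against KO gave 2953 with a minimum of 50 reads, 2994 without the 3 chromosomes and 2320 with DESeq2. DESeq2 left 651, 32172 and 0 copies without an adjusted p in the 3 comparisons. Without the 3 chromosomes copies under intervals minus those outside came to 0.15 in ΔcIDR against KO. The share under intervals was 1.13% when 50% of the copy had to be covered, 1.15% with a minimum of 10 reads and 2.16% with 50. Beyond the fewer loci or samples that enter a fit, the cause was not tested.

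With the replicate number as a block, limma called 425, 5 and 6712 copies on the deposited scale and 1267, 17 and 4056 on the centred scale. Deviations of same-numbered libraries correlated at 0.051, −0.14 and −0.036, so the numbers were not taken as pairs.

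Of 475 settings run on 30 named pairs of locus and comparison, 407 kept the call, 68 lost it (47 of them on leaving out a library) and 0 reversed. The call was kept without each library in turn for 5 of 10 pairs in KO against WT, 1 of 10 in ΔcIDR against WT and 9 of 10 in ΔcIDR against KO. Loci near the minimum of 20 reads are limited most by depth.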

Other observations

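A handful of B1 copies had most of their reads in 1 library. In 7 of the 34196 copies a single library held over 50% of the reads, and in 5 of these over 90%, while the median copy had 22.7% of its reads in its highest library. The copy chr19:5830554-5830698 had 625 reads in WT replicate 1 and 0 in the other 5 libraries. At chr17:40266721-40266866 WT replicate 2 had 426 reads and the others 0, 0, 2, 1 and 0 (WT replicate 1, KO and ΔcIDR in order).

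The same held for ΔcIDR libraries at chr6:115827049-115827184, with 196 reads in replicate 2, and chr19:5840037-5840180, with 127 in replicate 1, each at 0 in all others. At chr19:5751245-5751391 WT replicate 2 had 168 reads, WT replicate 1 had 1 and the rest 0. The highest of these counts was at chr19:5884155-5884300, with 919 and 9 reads in WT, 24 and 5 in KO and, for ΔcIDR, 95 and 2.

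Of the 7 copies, 5 lie between 5751245 and 5904998 on chromosome 19, a stretch that holds 18 of the chromosome's 987 members, among them the B1 copy with the most reads of all. Only 1 of the 7 was called in any comparison: chr19:5904852-5904998, with 15 and 33 reads in WT, 29 and 3 in KO and, for ΔcIDR, 176 and 31, was called in ΔcIDR against KO (3.00 ± 0.65 on the centred log2 scale, limma adjusted p = 0.0019). These 7 copies were picked after their values were seen, for the share of their reads in 1 library.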
